A study of Mus musculus with 50 samples.

Results

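Tagln (transgelin, also called SM22 alpha) and 8 other genes of the contractile actin cytoskeleton were followed through every expression library of a study of β-catenin in mouse embryonic stem (ES) cells. The 9 genes were Tagln, Acta2, Actg2, Myl9, Tpm1, Tpm2, Cnn1, Cnn2 and Cald1, and they were found by gene symbol among 56353 gene symbols in 4 deposited expression tables. They were selected on the steep increase of Tagln TPM between 24 and 48 h of differentiation in cells with no hairpin named. Values from that table are therefore given as a description without a test. The other 3 tables did not enter that rule and were tested. The choice was still made with earlier results of these data known, so the tests may not be independent of it. All 9 genes had a row in each of the 3 TPM tables (transcript shares scaled by length and to a common library total). In the FPKM table (fragments scaled by transcript length and library size) 8 had a row, and Actg2 was not analysed there.

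The series held 50 samples, of which 32 were RNA-seq libraries and 18 were chromatin samples that were not analysed here. Its stated aim concerned developmental genes under the control of a β-catenin protein complex. The first table (FPKM) held V6.5 mouse ES cells, kept in 2i (inhibitors of MEK and GSK3 that hold ES cells in a naive state), with a hairpin RNA against GFP (shGFP, the mock control, n = 6), β-catenin (shBcat, n = 2), E2F6 (shE2F6, n = 2) or HP1γ (shHP1r, n = 2). The second (TPM) held QKO ES cells in 2i with shGFP or shBcat (n = 3 each), labelled 48 h. The labels used here do not spell out QKO or say from when the 48 h count. The third (TPM) held V6.5 cells with no hairpin named, in 2i and after 24 and 48 h as epiblast-like cells (epiLC, the state that naive ES cells enter on leaving 2i), with n = 2 each. They are called unmodified below as a short name, and the labels do not say whether they carried a control vector. The fourth (TPM) held V6.5 epiLC with shBcat at 24, 48 and 96 h and epiLC with no hairpin named at 96 h, with n = 2 each. The latter are called control below, and the labels do not say whether they carried a control vector either. Nothing in the labels says that libraries of a group came from separate cultures, so each p-value is set against library-to-library spread that may be only technical. These are bulk libraries, so more cells that express a gene and more RNA per cell cannot be told apart.

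In contractile cells, myosin II pulls on actin filaments and is switched on when its regulatory light chain is phosphorylated. Acta2 and Actg2 encode smooth muscle actins, Myl9 a regulatory light chain, and Tpm1 and Tpm2 tropomyosins that coat the filament. Cald1 (caldesmon) and the calponins Cnn1 and Cnn2 bind actin and restrain myosin, and Tagln is a calponin-related protein that cross-links actin. Many of these genes are classic targets of serum response factor (SRF), which binds the CArG box and acts with the myocardin-related factors MRTF-A and MRTF-B, themselves held in check by free actin monomers. Tagln, Acta2 and Cnn1 mark smooth muscle and are also expressed by fibroblasts and other spreading cells.

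All 9 genes are annotated as protein-coding on mouse build GRCm38.p6. Tagln lies on chromosome 9 from 45929628 to 45936058, Cnn1 on chromosome 9 from 22099221 to 22109221 and Tpm1 on chromosome 9 from 67022590 to 67049672. Acta2 lies on chromosome 19 from 34240336 to 34255585, and Actg2 on chromosome 6 from 83512909 to 83536251. Cald1 lies on chromosome 6 from 34598495 to 34775469, and Tpm2 on chromosome 4 from 43513726 to 43523583. Myl9 lies on chromosome 2 from 156775408 to 156781657, and Cnn2 on chromosome 10 from 79988600 to 79995400.

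The promoters of Cnn2 and Myl9 are shown because these are the 2 members with a CArG box in the search below. Both are also among the 8 genes closest to Tagln in level across differentiation (by the ranking of correlations). The sequences come from RefSeq, build GRCm38.p6, plus strand. They lie at chr10:79988350-79988599 for Cnn2 and chr2:156775214-156775407 for Myl9, and end before the first annotated base of each gene. Capitals mark the CArG box.
Cnn2: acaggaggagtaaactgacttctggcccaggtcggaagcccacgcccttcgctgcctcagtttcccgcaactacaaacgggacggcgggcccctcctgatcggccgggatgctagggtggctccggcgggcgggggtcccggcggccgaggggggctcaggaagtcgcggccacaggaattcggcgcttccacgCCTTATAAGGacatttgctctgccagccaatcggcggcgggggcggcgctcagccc
Myl9: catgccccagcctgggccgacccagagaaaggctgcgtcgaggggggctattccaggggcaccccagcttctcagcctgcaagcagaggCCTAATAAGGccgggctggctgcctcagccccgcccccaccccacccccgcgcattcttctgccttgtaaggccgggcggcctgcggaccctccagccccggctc
The CArG box starts 56 bases before the first annotated base of Cnn2 and 105 bases before that of Myl9. It was searched by its exact letters on both strands, in RefSeq windows from 250 bases before to 50 bases after a transcription start. That start lies inside the annotated gene for Myl9, and also for others such as Acta2, Tpm1 and the second Cald1 window. The whole Tpm1 window (67049164 to 67049463) lies inside its gene, so bases before the first annotated base of Tpm1 were not searched. The CArG box was found in 2 of the 7 members with a promoter in the RefSeq table (8 windows) and in 1.81% of all 27025 genes in it. Near forms that differ by a base, such as CCCTATATGG in the Acta2 window, were not counted. A member without a hit may thus still hold such a form. The letters CTTTGAT, a form of the site bound by the TCF partners of β-catenin, were found in 0 of those 7 members and in 4.29% of all genes. Tagln and Actg2 are named only.

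The hairpins lowered their targets. Ctnnb1 (β-catenin) was at 6.60 FPKM with shBcat against 116 with shGFP in V6.5 cells, at 64.4 against 505 TPM in QKO cells and at 144 against 445 TPM in 96 h epiLC. E2f6 was at 3.06 FPKM against 10.0, and Cbx3, which encodes HP1γ, at 6.93 FPKM against 63.5. All 5 differences passed limma's moderated test with Benjamini-Hochberg adjustment, with adjusted p between 6.92e-07 and 0.0108. The core pluripotency gene Pou5f1 was at 86.7 to 336 FPKM in the hairpin libraries in 2i and at 336 to 1280 TPM in the TPM libraries. Fgf5, a marker of the epiblast state, was at or under 0.04 TPM in unmodified cells in 2i and between 8.60 and 31.8 TPM in every epiLC library. Depth is unknown for all libraries, and the number of genes at 1 or more was 12446 to 14151 in the FPKM libraries and 13924 to 15351 in the TPM libraries.

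**Figure D1:**
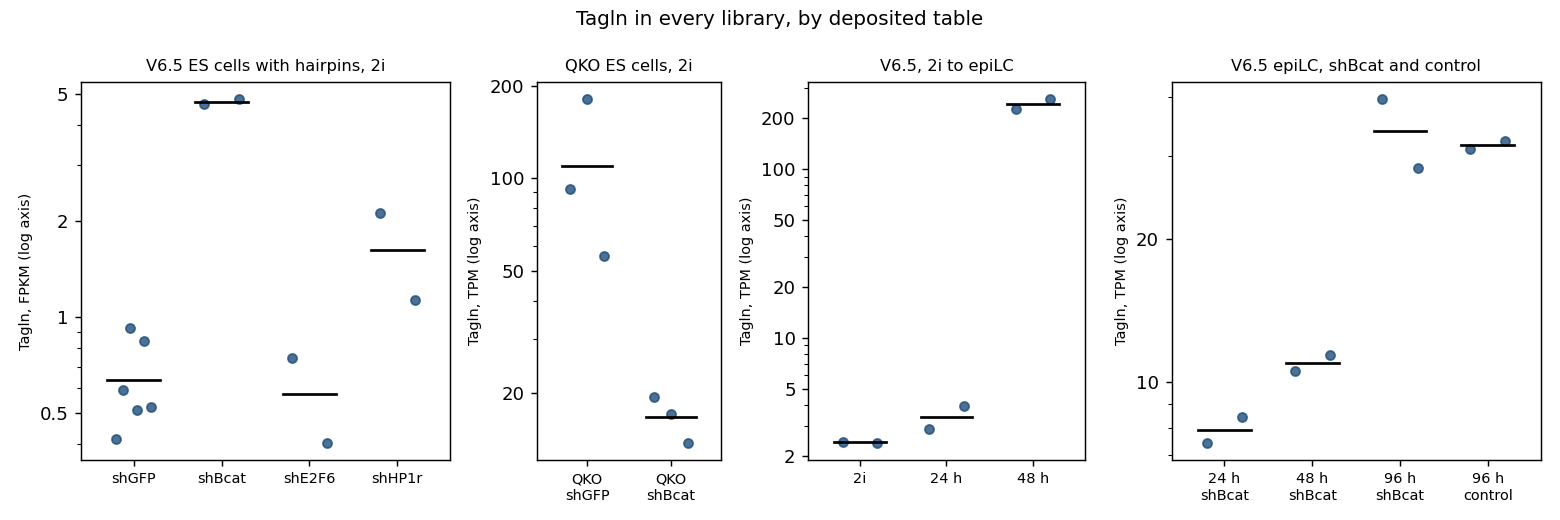
Tagln in each of the 32 expression libraries, with 1 panel for each deposited table and a log axis in FPKM (first panel) or TPM (other panels). Points are libraries and bars are group means. Levels of different panels were normalized separately. The 48 h libraries of unmodified cells (226 and 258 TPM) are the highest in their panel, and shBcat libraries lie above shGFP in V6.5 cells and below it in QKO cells.

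In unmodified V6.5 cells, all 9 contractile genes had their highest level at 48 h of epiLC differentiation, from starting levels that ran from near 0 (Acta2, Actg2) to over 80 TPM (Tpm1). Tagln was at 2.40 and 2.39 TPM in 2i, at 2.86 and 3.93 TPM at 24 h, and at 226 and 258 TPM at 48 h. The 48 h mean was 71.3 times the 24 h mean. Acta2, the main smooth muscle actin, was at 0.04 and 0.13 TPM in 2i, at 0.06 and 0.07 TPM at 24 h, and at 22.4 and 23.1 TPM at 48 h. Its earlier levels are too near 0 for an informative ratio. Actg2, the enteric smooth muscle actin, stayed at or under 0.19 TPM in all 6 libraries.

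Myl9 and the tropomyosins carried the highest levels of the motor and filament group at 48 h. Myl9 was at 0.39 and 0.24 TPM in 2i, at 2.45 and 2.98 TPM at 24 h, and at 85.7 and 83.2 TPM at 48 h. Tpm1 was the most abundant member, at 95.98 and 95.3 TPM in 2i, 86.1 and 81.7 TPM at 24 h, and 1047 and 1091 TPM at 48 h. Tpm2 was at 28.6 and 30.7 TPM in 2i, 63.6 and 65.5 TPM at 24 h, and 120 and 121 TPM at 48 h. Tpm1 was thus slightly lower at 24 h than in 2i, whereas Tpm2 was already higher at 24 h and differed only 1.87 times between 24 and 48 h.

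The calponins and caldesmon, which restrain myosin, also differed in their timing. Cnn1 was at 1.43 and 0.74 TPM in 2i, at 5.38 and 5.05 TPM at 24 h, and at 27.1 and 27.5 TPM at 48 h. Cnn2 was at 9.76 and 9.58 TPM in 2i, at 12.1 and 13.9 TPM at 24 h, and at 206 and 225 TPM at 48 h. Cald1 was lower at 24 h than in 2i, from 32.3 and 30.6 to 14.3 and 12.98 TPM, and was at 111 and 114 TPM at 48 h. Between 2i and 24 h, 6 members were higher without overlap, as were 41.8% of all genes tested. Tpm1 and Cald1 were lower without overlap, as were 45.9% of all genes, and Acta2 overlapped.

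All 9 members were higher at 48 h than at 24 h with no overlap, and 51.8% of all 16559 genes tested were as well. Among the 8 members that reached 1 TPM in at least 2 libraries, the median change was 3.80 on the log2(TPM + 1) scale, against 0.12 for all genes. These values chose the members and support nothing further. By mean TPM at 48 h the order was Tpm1, Tagln, Cnn2, Tpm2, Cald1, Myl9, Cnn1, Acta2 and Actg2. Libraries of neighbours in that order did not overlap, though the lowest Tagln value (226 TPM) and the highest Cnn2 value (225 TPM) lay close together.

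Other genes of the same machinery were tested in this table, in which 45.2% of all genes were called higher at 48 h than at 24 h (limma, adjusted p under 0.05). All 4 actin paralogs rose, of which 2 reached 1 TPM in any library at 24 h and 4 at 48 h. Actb went from 2087 to 2563 TPM (0.30 on the log2 scale) and Actg1 from 1574 to 2962 TPM (0.91), whereas the striated muscle actin Acta1 went from 0.31 to 10.9 TPM. The paralogs Tagln2 (110 to 174 TPM), Tagln3 and Cnn3 (197 to 324 TPM) also rose, all 3 by less than Tagln or Cnn2. Of 18 other filament proteins, 15 rose and 3 fell. Tpm4, a tropomyosin of non-muscle cells, rose from 67.3 to 331 TPM. Of 13 genes of myosin II and its regulators, 11 rose and 1 fell, and Myh9, the main non-muscle heavy chain, rose from 52.9 to 199 TPM.

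Srf and most of its listed targets rose in the same interval. The target list shares Acta1, Vcl, Zyx, Flna and Myh9 with the lists above and holds Srf itself, so the counts overlap. Of 6 tested genes for SRF and its coactivators, 5 rose, among them Srf itself (32.2 to 61.0 TPM, 0.90 on the log2 scale). Myocd, the coactivator specific to heart and smooth muscle, was at or under 0.07 TPM in every library and was not tested. Of 18 SRF and MRTF target genes, 17 rose and Ier2 fell, with a median change of 1.95. Of the listed targets, 14 reached 1 TPM in any library at 24 h and 18 at 48 h. A gene that met the filter only through the 48 h libraries was bound to be higher there. The matricellular gene Ccn1 rose from 4.24 to 96.6 TPM and Thbs1 (thrombospondin) from 1.06 to 25.6 TPM. Of 13 genes of the TGF-β pathway, another inducer of contractile genes, 11 rose.

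Markers of several cell types moved with these genes and others fell, and the part of either in the result was not tested. The smooth muscle markers summed to 25.6 to 26.3 TPM at 24 h and to 58.8 to 63.4 TPM at 48 h, and 3 of 4 tested rose. Myh11, the smooth muscle heavy chain that defines the mature cell, was at or under 0.35 TPM throughout, and Mylk, the light chain kinase, at or under 0.56 TPM. The fibroblast or feeder markers summed to 18.1 to 20.0 TPM at 24 h and 37.2 to 37.7 TPM at 48 h, and 7 of 9 tested rose. None of either list was at 0 in both libraries at 24 h or at 48 h. The trophoblast markers, which include the epithelial keratins Krt8 and Krt18, summed to 32.0 to 33.5 TPM at 24 h and 201 to 208 TPM at 48 h, and 6 of 7 tested rose. Extraembryonic endoderm markers summed to 82.6 to 84.7 and 156 to 163 TPM (6 of 6 tested rose), and primitive streak and mesoderm markers to 4.87 to 5.39 and 14.4 to 15.7 TPM (4 of 5 tested rose). None of these lists had a marker at 0 in both libraries of either time. Fibroblast or feeder markers at 1 TPM or more in any library numbered 5 at 24 h and 10 at 48 h. The numbers were 2 and 6 for primitive streak and mesoderm, 4 and 7 for trophoblast and 4 and 6 for extraembryonic endoderm. A marker that met the filter only through the 48 h libraries was bound to rise. The cardiac and skeletal muscle markers summed to 21.8 to 22.8 TPM at 24 h and 17.2 to 17.3 TPM at 48 h. Of 6 tested, 1 rose and 4 fell. The pluripotent core markers summed to 1899 to 1945 and 684 to 692 TPM (4 of 4 fell). The formative and primed epiblast markers summed to 962 to 970 and 417 to 424 TPM (2 of 8 rose, 5 fell). Of 9 naive ES cell markers, 4 rose and 3 fell.

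**Figure D2:**
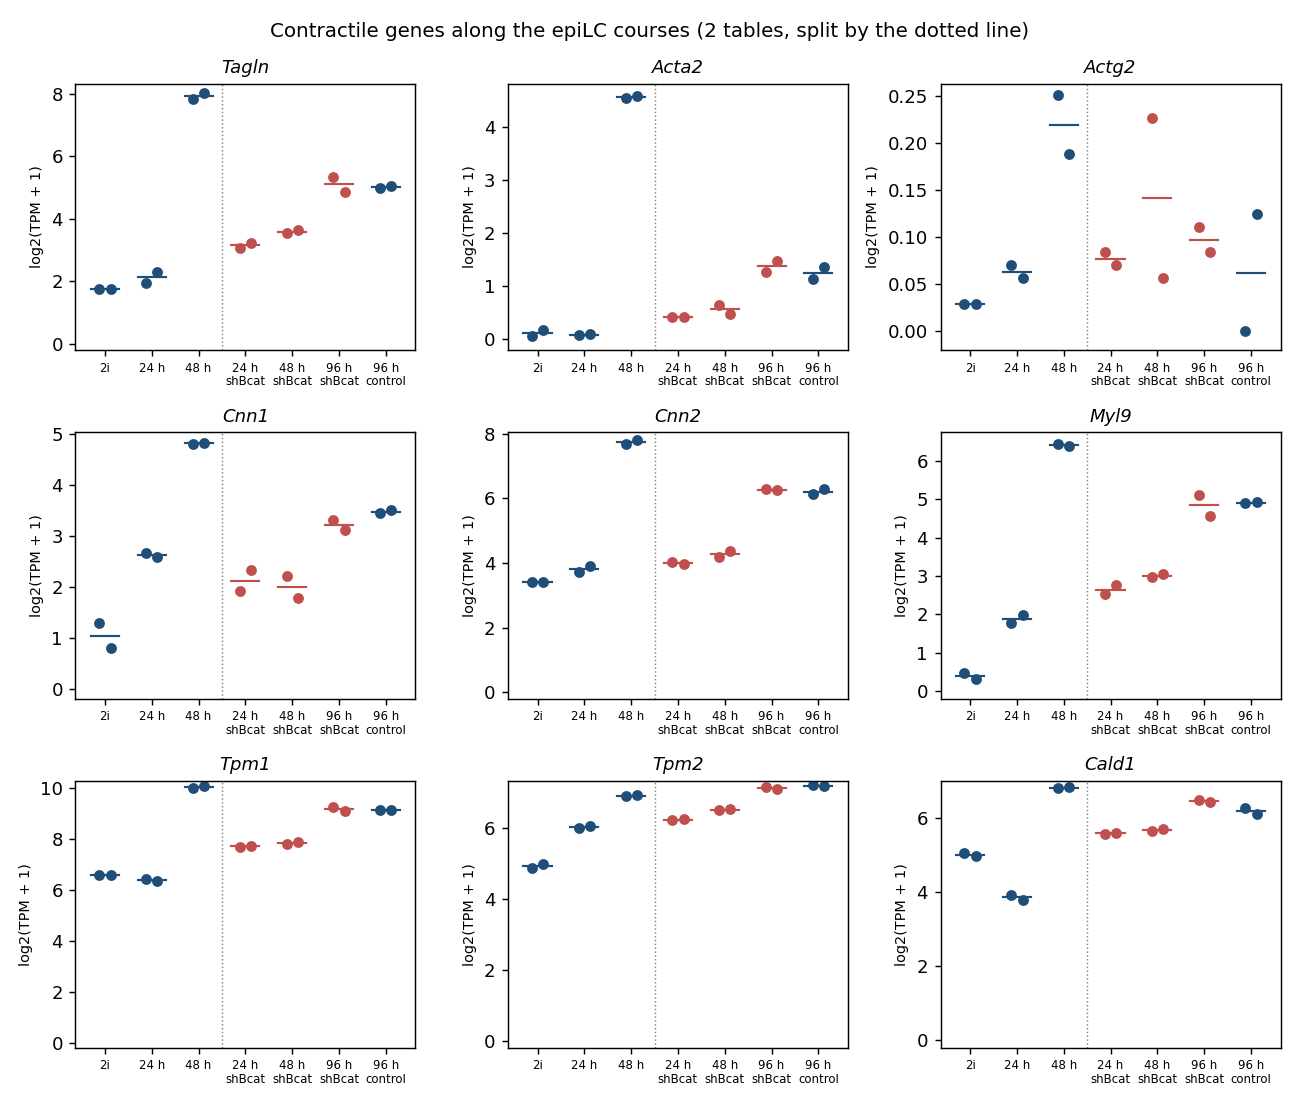
The 9 genes across epiLC differentiation, 1 panel per gene, with sample groups along the horizontal axis and log2(TPM + 1) on the vertical axis. Points are libraries and short bars are group means. A dotted line splits 2 tables normalized separately, the first with unmodified cells and the second with shBcat cells and the 96 h control. In unmodified cells Tagln goes from 3.40 to 242 TPM between 24 and 48 h, and in shBcat cells from 7.94 to 10.98 TPM, then to 33.9 TPM at 96 h.

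In epiLC with the β-catenin hairpin, the increase from 24 to 48 h was small, and the larger one came between 48 and 96 h. Tagln was at 7.45 and 8.42 TPM at 24 h, at 10.6 and 11.4 TPM at 48 h, and at 39.5 and 28.3 TPM at 96 h. Control epiLC at 96 h were at 31.0 and 32.3 TPM. The 3 shBcat time points did not overlap, while the 96 h control libraries lay inside the 96 h shBcat range. Control cells at 24 and 48 h are in another table, so 242 TPM (unmodified, 48 h) and 10.98 TPM (shBcat, 48 h) stand side by side with no test.

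From 24 to 48 h with shBcat, 3 of 8 tested members rose, and 15.7% of all 15304 genes were called higher. Tpm2 rose by 0.29 on the log2 scale (SE 0.04, limma adjusted p = 0.00240), from 74.1 and 75.7 TPM to 91.1 and 92.1 TPM. Cnn2 rose by 0.28 (SE 0.08, limma adjusted p = 0.0240), from 15.3 and 14.7 TPM to 17.4 and 19.5 TPM. Tagln rose by 0.42 (SE 0.14, limma adjusted p = 0.04998). The Tagln call was lost without any 1 of the 4 libraries (adjusted p 0.0921 to 0.219) and with median-of-ratios scaling (0.0726). The Cnn2 call was lost without replicate 1 or 2 at 24 h or replicate 2 at 48 h (0.0721 to 0.150).

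The other 5 members did not pass from 24 to 48 h. Myl9 was at 4.74 and 5.86 TPM, then at 6.83 and 7.26 TPM (0.36, adjusted p = 0.137 by limma), and Cnn1 at 2.78 and 4.01 TPM, then at 3.67 and 2.42 TPM (−0.12, 0.635). Tpm1, Cald1 and Acta2 were each higher at 48 h without overlap, by 0.10 to 0.14 on the log2 scale, and 33.7% of all genes were higher without overlap. The median over the 8 members was 0.21, against −0.02 for all genes. Among other genes of the machinery, 3 of 18 filament proteins rose and 8 fell, 0 of 6 SRF and coactivator genes passed, and 9 of 17 SRF and MRTF targets rose and 1 fell.

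From 48 to 96 h with shBcat, all 8 tested members rose, and 25.2% of all genes were called higher. Tagln rose 3.09 times, by 1.53 on the log2 scale (SE 0.14, limma adjusted p = 0.000289). Cnn2 rose from 17.4 and 19.5 TPM to 76.8 and 76.3 TPM, by 2.00 (SE 0.08, limma adjusted p = 9.10e-06), the largest change on the log2(TPM + 1) scale among the 8. Myl9 rose from 6.83 and 7.26 TPM to 33.7 and 22.9 TPM, by 1.84 (SE 0.17, limma adjusted p = 0.000319). Cnn2 and Myl9 also had the largest ratios of means of the 8, at 4.14 and 4.01, followed by Acta2 at 3.34 and Tagln.

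Tpm1 remained the most abundant member with shBcat, going from 222 and 233 TPM at 48 h to 607 and 549 TPM at 96 h, by 1.34 (SE 0.06, limma adjusted p = 1.31e-05). Cnn1 rose from 3.67 and 2.42 TPM to 8.95 and 7.69 TPM, by 1.22 (SE 0.18, limma adjusted p = 0.00205). Acta2 rose by 0.81 (limma adjusted p = 0.00332) but only to 1.41 and 1.80 TPM. It stayed under 1 TPM at 24 and 48 h and met the filter only through the 96 h libraries. Cald1 rose by 0.77 to 89.7 and 85.7 TPM, and Tpm2 by 0.61 to 144 and 138 TPM. Actg2 was at or under 0.17 TPM in all 8 libraries and was listed at 0 in 1 control library. The median over the 8 members was 1.28, against 0.09 for all genes. Every call held under each alternative in which the gene was tested. Acta2 did not reach 5 TPM and was not tested where genes had to reach that level.

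The wider machinery rose in this interval in part. Of 18 other filament proteins 12 rose and 0 fell, among them Tpm4 (113 to 203 TPM). Both cytoplasmic actins rose, Actb from 1412 to 1904 TPM and Actg1 from 1398 to 1995 TPM. Of 17 SRF and MRTF targets 13 rose and 2 fell, and Thbs1 went from 4.36 to 17.3 TPM. The immediate early genes Egr1 (12.7 to 4.14 TPM) and Fos were those that fell. Srf rose by 0.54 (27.0 to 40.1 TPM). The fibroblast or feeder markers summed to 18.7 to 19.0 TPM at 48 h and 26.1 to 26.8 TPM at 96 h, the smooth muscle markers to 28.1 to 28.6 and 34.5 to 36.5 TPM, and the trophoblast markers to 63.9 to 65.3 and 124 to 134 TPM. Of those tested, 5 of 8, 3 of 4 and 7 of 7 rose. The extraembryonic endoderm markers summed to 86.9 to 97.1 and 120 to 133 TPM, and 4 of 5 tested rose. None of these markers was at 0 in both libraries at either time, and their part in the result was not tested. At 48 and 96 h, 5 and 9 fibroblast or feeder markers and 15 and 17 SRF and MRTF targets reached 1 TPM in any shBcat library. The cardiac and skeletal muscle markers summed to 30.8 to 32.4 and 21.9 to 23.7 TPM, and of 7 tested 0 rose and 4 fell. The pluripotent core markers summed to 1009 to 1010 and 705 to 774 TPM (2 of 4 fell, 0 rose). Of 8 formative and primed epiblast markers, 3 rose and 3 fell.

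At 96 h, where shBcat and control epiLC are in 1 table, 0 of 8 members passed, and 4.82% of all genes were called in either direction. At unadjusted p under 0.05 the count was 1 member, Cald1, and 3056 of all 15304 genes. Tagln differed by 0.08 on the log2 scale (95% interval −0.25 to 0.40, limma adjusted p = 0.820). For Cnn2, the values were 76.8 and 76.3 TPM with shBcat against 69.0 and 77.7 TPM in controls (0.06, 95% interval −0.11 to 0.24). Tpm1 was at 607 and 549 TPM against 568 and 574 TPM (0.02, 95% interval −0.11 to 0.15). The intervals for these 3 genes leave room for differences of up to 0.40, 0.24 and 0.15.

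Myl9 was at 33.7 and 22.9 TPM with shBcat against 28.8 and 29.5 TPM in controls at 96 h (−0.07, 95% interval −0.45 to 0.32). Cald1 was at 89.7 and 85.7 TPM against 76.9 and 68.7 TPM (0.27, 95% interval 0.12 to 0.42, limma adjusted p = 0.0609). It passed without control replicate 1 (0.0431) and where genes had to reach 5 TPM (0.0446). Cnn1 at 8.95 and 7.69 against 10.0 and 10.4 TPM, and Tpm2 at 144 and 138 against 148 and 146 TPM, lay below the controls without overlap and did not pass.

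Some related genes did differ at 96 h. Tagln2, the paralog of Tagln outside muscle, was lower with shBcat (85.6 against 110 TPM, −0.36, limma adjusted p = 0.00420). The actin monomer binders Tmsb4x (−0.33) and Tmsb10 (−0.27) were lower, and the other 16 of 18 filament proteins did not pass. Of 17 SRF and MRTF targets, 4 were lower: Egr1 (4.14 against 13.97 TPM), Fos, Junb and Ccn1 (45.6 against 61.4 TPM). Srf and its coactivators did not pass in 6 of 6 cases.

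In V6.5 ES cells kept in 2i, most of the contractile genes were higher with the β-catenin hairpin than with shGFP. Tagln was between 0.417 and 0.927 FPKM in the 6 shGFP libraries (median 0.558) and at 4.65 and 4.82 FPKM with shBcat. The shBcat libraries were both above every shGFP library, and the means differed 7.44 times. On the log2(FPKM + 1) scale the difference was 1.82 (SE 0.17, limma adjusted p = 0.000127). In all, 5 of 7 tested members were higher and 0 lower, and 3.51% of all 14407 genes were called higher. Tagln and Myl9 stayed under 1 FPKM in every shGFP and shE2F6 library. They met the filter only through shBcat and shHP1r libraries, where they were high.

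Myl9 was at 0.114 to 0.613 FPKM with shGFP (median 0.255) and at 2.10 and 2.06 FPKM with shBcat, a log2 difference of 1.26 (SE 0.21, limma adjusted p = 0.00478). Tpm1 was at 12.2 to 13.7 FPKM (median 12.8) and at 27.2 and 28.5 FPKM, a difference of 1.06 (SE 0.10, limma adjusted p = 0.000128). Both filament genes were thus clear of the shGFP range. Tpm2 was at 2.52 to 3.88 FPKM (median 3.06) and at 6.34 and 5.95 FPKM, a difference of 0.77 (SE 0.15, limma adjusted p = 0.00951). Acta2 did not follow: it was at 1.11 to 4.19 FPKM with shGFP and at 1.82 and 3.01 FPKM with shBcat (0.16, 95% interval −0.69 to 1.01, limma adjusted p = 0.848).

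Of the proteins that restrain myosin, Cnn2 was at 3.70 to 4.82 FPKM with shGFP (median 4.10) and at 13.3 and 14.8 FPKM with shBcat, a difference of 1.55 (SE 0.23, limma adjusted p = 0.00243). Cnn1 was at 0.0405 to 0.231 FPKM and at 0.582 and 0.629 FPKM, without overlap, as for 16.6% of all genes tested, but lay under the level needed for a test. Cald1 was at 8.81 to 13.9 FPKM and at 14.5 and 14.2 FPKM, also without overlap (0.36, 95% interval −0.10 to 0.82, limma adjusted p = 0.351). The median over the 7 tested members was 1.06, against 0.01 for all genes.

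The shGFP libraries came as 3 pairs of near neighbours. Replicates 1 and 2, 3 and 4, and 5 and 6 differed by a median of 0.0506 to 0.0657 on the log2 scale over all genes, against 0.158 to 0.371 across pairs. The 2 shBcat libraries differed by 0.0537. With the libraries averaged in these pairs, 0 genes of all tested passed by limma for shBcat, Ctnnb1 and the members included (631 at unadjusted p under 0.05), and the log2 difference of Tagln for shBcat was 1.81. The calls for Cnn2, Myl9 and Tpm2 were lost without shBcat replicate 2 (adjusted p 0.0629, 0.0810 and 0.114) and those for Myl9 and Tpm2 without replicate 1 (0.0880 and 0.161), while Tagln and Tpm1 passed in every such fit.

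Few of the related genes passed in shBcat cells. Actb was at 548 against 549 FPKM and Actg1 at 373 against 285 FPKM, and 0 of 3 actin paralogs passed. Tagln2, Tagln3 and Cnn3 did not pass either. Of 18 other filament proteins, Tpm4 (48 against 32.6 FPKM) and the actin cross-linker Flna (67.8 against 42.5 FPKM) were higher. Of 13 genes of myosin II and its regulators, the heavy chain Myh10 was higher (25.4 against 14.8 FPKM). Of 12 SRF and MRTF targets, Cyr61 (12.1 against 5.76 FPKM) and Flna were higher and Ctgf was lower (14.2 against 22.4 FPKM), and 0 of 5 SRF and coactivator genes passed.

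Marker sums were read in the same libraries. The fibroblast or feeder markers (8 with a row) summed to 3.70 to 4.00 FPKM with shBcat and to 3.99 to 8.05 FPKM with shGFP, and 0 of 5 tested passed. The smooth muscle markers (6 with a row) summed to 15.5 to 16.4 FPKM and to 8.37 to 14.2 FPKM, and 0 of 2 tested passed. The trophoblast markers (8 with a row) summed to 51.6 to 53.8 FPKM and to 26.3 to 43.3 FPKM, and 3 of 4 tested were higher, among them Krt8 (10.2 against 3.29 FPKM) and Krt18 (8.75 against 3.75 FPKM). The formative and primed epiblast markers (7 with a row) summed to 29.7 to 31.8 FPKM and to 17.6 to 21.2 FPKM, and 1 of 5 tested was higher, Otx2 (6.61 against 1.31 FPKM). The primitive streak and mesoderm markers (6 with a row) summed to 1.70 to 1.82 FPKM and to 4.44 to 8.72 FPKM, and 2 of 2 tested were lower, among them Eomes (0.802 against 4.30 FPKM). No marker was at 0, and the part of these markers in the result was not tested.

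With the hairpin against E2F6, 0 of 7 members passed against shGFP, and 1.06% of all genes were called in either direction. Adjusted p by limma ran from 0.176 to 0.824. An unadjusted p under 0.05 was found for 0 of the 7 members and for 4857 of all 14407 genes. Tagln was at 0.748 and 0.405 FPKM (−0.05, 95% interval −0.42 to 0.32, and 0.035 with median-of-ratios scaling) and Acta2 at 3.31 and 4.76 FPKM (0.73, 95% interval −0.12 to 1.58). Acta2 was high in a set of libraries that also stood apart in mitochondrial share: both shE2F6 libraries and shGFP replicates 3 and 4 had 19.3% to 22.9% of their summed FPKM in mitochondrial genes, against 6.23% to 10.3% in the other 8. Acta2 averaged 4.14 FPKM in shGFP replicates 3 and 4, against 1.50 and 1.12 FPKM in the other pairs. Against shGFP replicates 3 and 4 alone, or with a term for this set of 4 libraries, the shE2F6 difference of Acta2 was −0.045.

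With the hairpin against HP1γ, 3 of 7 members were higher, against 5.89% of all genes, and the 2 libraries differed from each other. Tagln was at 2.12 and 1.13 FPKM (0.66, SE 0.17, limma adjusted p = 0.0376). Myl9 was at 2.62 and 0.888 FPKM (1.03, SE 0.21, limma adjusted p = 0.0140), and Tpm1 at 19.3 and 15.2 FPKM (0.39, SE 0.10, limma adjusted p = 0.0390). Replicate 1 was the higher for all 3 genes, and both replicates lay above every shGFP library. Tagln and Myl9 met the filter only through shBcat and shHP1r libraries. Cnn2 was at 11.5 and 4.61 FPKM and did not pass (0.71, adjusted p = 0.0927).

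All 3 shHP1r calls were lost without shHP1r replicate 1 (adjusted p 0.220 to 0.499). Without replicate 2, Cnn2 passed at 1.28 (adjusted p = 0.000428). The calls for Tagln and Tpm1 were also lost without shGFP replicate 1, 2, 4 or 6, and that for Tpm1 without replicate 5. With median-of-ratios scaling 1 of 7 passed, Myl9. Acta2 (0.99 and 1.96 FPKM), Tpm2 (3.27 and 3.33 FPKM) and Cald1 lay within or across the shGFP range. The fibroblast or feeder markers summed to 10.0 to 15.4 FPKM in these libraries, above the 3.99 to 8.05 FPKM with shGFP, none was at 0, and 3 of 5 tested were higher. These were Thy1 (3.78 against 1.05 FPKM), Col5a1 (3.14 against 1.36 FPKM) and Fbn1 (1.51 against 0.535 FPKM). Of the fibroblast or feeder markers, 4 reached 1 FPKM in any shGFP library and 6 in any shHP1r library. The trophoblast markers summed to 42.5 to 45.2 FPKM against 26.3 to 43.3 FPKM, and 2 of 4 tested were higher (Krt8 and Krt18). The extraembryonic endoderm markers summed to 68.9 to 84.7 FPKM against 47.9 to 76.8 FPKM, and 2 of 5 tested were higher (Dab2 and Col4a1). The part of these markers in the result was not tested.

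**Figure D3:**
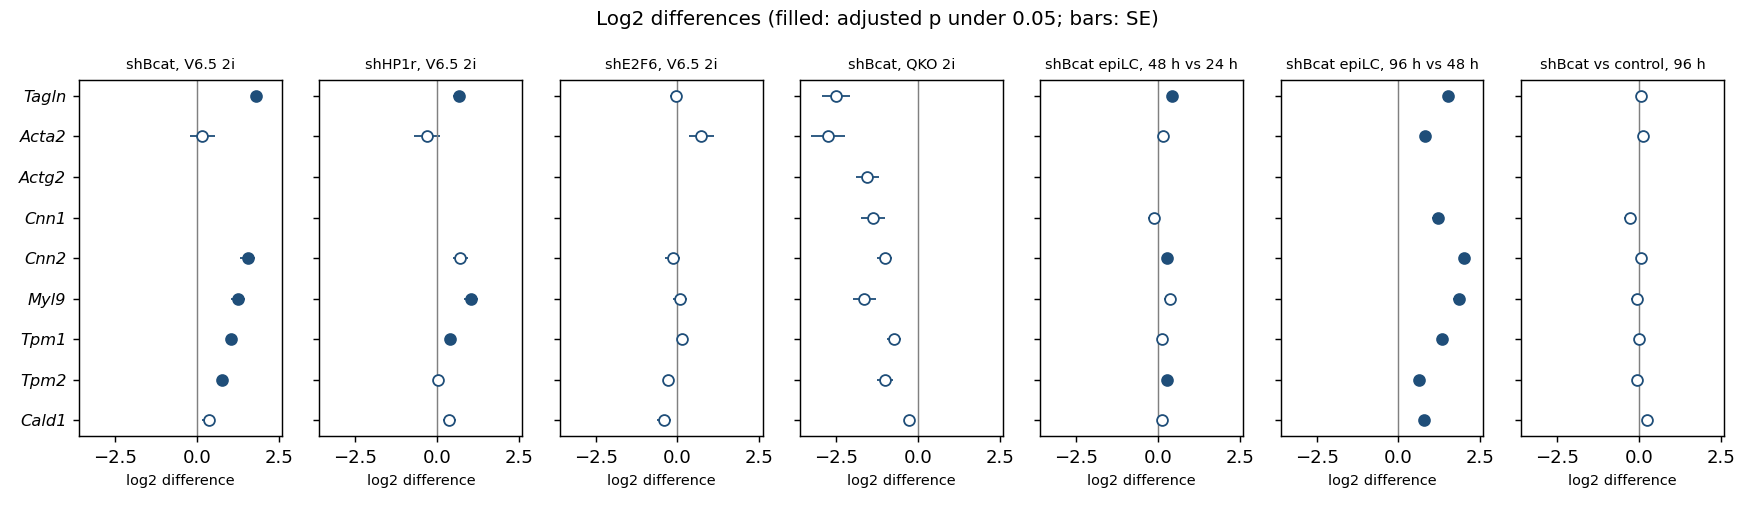
Differences of the tested members in the 7 comparisons with a test, on the log2(value + 1) scale with standard errors. Filled points passed limma at an adjusted p of 0.05 and open points did not. In V6.5 cells in 2i, 5 of 7 members were higher with shBcat, in QKO cells 9 of 9 lay below 0 without passing, and in shBcat epiLC all 8 rose from 48 to 96 h.

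In QKO ES cells the contractile genes lay lower with shBcat than with shGFP. Tagln was at 92.1, 180 and 55.9 TPM in shGFP replicates 1, 2 and 3 and at 19.4, 17.1 and 13.8 TPM in shBcat replicates 1, 2 and 3. The groups did not overlap, and the log2 difference was −2.49 (95% interval −3.55 to −1.42, limma adjusted p = 0.0512). All 9 members were lower without overlap, as were 24.6% of all 15562 genes tested. None of the 9 passed the adjusted threshold, which 1.56% of all genes passed as lower. An unadjusted p under 0.05 was found for 9 of 9 members and, in either direction, for 4464 of all 15562 genes. For single genes the exact permutation test of 3 against 3 libraries cannot go under 0.1.

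Acta2, Tagln and Actg2 had the lowest ratios of shBcat to shGFP means, at 0.129, 0.153 and 0.156. Acta2 was at 66.0, 134 and 39.2 TPM with shGFP and at 15.6, 9.26 and 6.11 TPM with shBcat (−2.75, SE 0.52, adjusted p = 0.0552 by limma). Actg2 was at 3.26, 6.71 and 2.08 TPM and at 0.90, 0.71 and 0.27 TPM (−1.54, SE 0.34, 0.0574). Myl9 was at 14.9, 31.4 and 12.1 TPM and at 5.76, 5.42 and 4.14 TPM (−1.64, SE 0.35, 0.0582). QKO cells with shGFP were thus the one group in which Actg2 exceeded 1 TPM, and Actg2 met the filter only through those libraries.

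Log2 differences were smaller for the tropomyosins, caldesmon and Cnn2 in QKO cells. Tpm1 was at 151, 227 and 134 TPM with shGFP and at 118, 96.3 and 88.7 TPM with shBcat (−0.72, SE 0.22, adjusted p = 0.103 by limma). Tpm2 was at 26.6, 43.6 and 21.4 TPM and at 15.4, 14.1 and 12.8 TPM (−1.01, SE 0.25, 0.0701). Cald1 was at 141, 170 and 131 TPM and at 118, 121 and 128 TPM (−0.26, SE 0.09, 0.129). For the calponins, Cnn1 was at 3.39, 8.66 and 2.68 TPM against 1.46, 1.00 and 0.84 TPM (−1.37, SE 0.36, 0.0724), and Cnn2 was at 39.2, 58.5 and 34.0 TPM against 25.0, 21.0 and 17.0 TPM (−1.01, SE 0.23, 0.0618). The median over the 9 was −1.37, against −0.04 for all genes.

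The calls in QKO cells turned on single shGFP libraries. Without shGFP replicate 3, 5 members passed (Tagln at −2.88, adjusted p = 0.0284), and calls over all genes went from 334 to 964. Without shGFP replicate 2, 3 passed (Tagln at −2.05, adjusted p = 0.0496, with Myl9 and Tpm2), and calls over all genes were 191. Without shGFP replicate 1, 0 passed, and calls over all genes were 8. Replicate 2 was the highest and replicate 3 the lowest shGFP library for 9 of 9 members, an order that 25.6% of all genes shared. The 9 members together summed to 537, 861 and 432 TPM in the shGFP libraries and to 319, 286 and 272 TPM in the shBcat libraries.

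Fibroblast or feeder markers moved alongside, and their part in the result was not tested. The 14 markers summed to 383, 638 and 280 TPM in shGFP replicates 1, 2 and 3 and to 89.1, 104 and 113 TPM in shBcat replicates 1, 2 and 3. Of 13 tested, 5 were lower with shBcat, among them the collagens Col1a1 (18.2 against 91.7 TPM) and Col3a1 (29.2 against 170 TPM) and the matrix gene Postn (1.57 against 10.9 TPM). Their median difference was −1.34, and none was at 0 in all libraries of a group. In the shGFP libraries, 12 of 13 followed the order replicate 2, 1, 3. In the shBcat libraries, the order 1, 2, 3 held for 8 of 9 members, 3 of 13 of these markers and 24.2% of all genes. The extraembryonic endoderm markers summed to 616 to 818 TPM with shGFP and 483 to 523 TPM with shBcat, and 0 of 7 tested passed. The smooth muscle markers summed to 39.6 to 50.4 TPM with shGFP and 29.4 to 35.8 TPM with shBcat, and Myh11 was at or under 0.48 TPM.

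**Figure D4:**
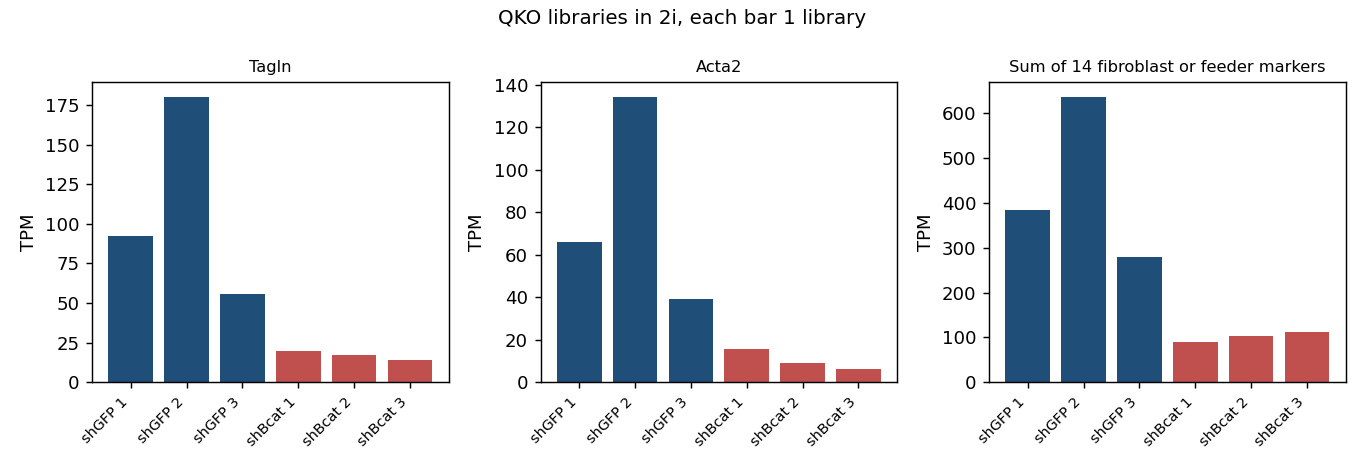
Tagln, Acta2 and the summed fibroblast or feeder markers in the 6 QKO libraries, with a panel for each and TPM on a linear axis. Each bar is a library. In shGFP, replicate 2 is the highest library for Tagln, Acta2 and the marker sum (638 TPM). In shBcat, the marker sum goes from 89.1 to 113 TPM while Tagln goes from 19.4 to 13.8 TPM.

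Among related genes in QKO cells, 0 of 16 SRF and MRTF targets passed, with a median difference of −0.54. By level, Zyx, a focal adhesion protein, was at 10.3 against 36.1 TPM (−1.63, limma adjusted p = 0.0577) and Ccn1 at 12.6 against 40.7 TPM. Tagln2 was at 152 against 154 TPM and Cnn3 at 439 against 438 TPM, so the non-muscle paralogs lay at nearly equal means. Of 14 TGF-β pathway genes, the ligands Tgfb2 (1.00 against 3.97 TPM) and Tgfb3 (1.65 against 7.75 TPM) were lower and 1 gene was higher.

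The shBcat difference thus pointed up in V6.5 cells and down in QKO cells. Of the 8 members with a row in both tables, 7 were higher with shBcat in V6.5 and lower in QKO without overlap in either table, and Acta2 was the exception. Over the 12511 genes tested in both tables, 3.44% showed that pattern, and 6 of 7 members past the filter in both did. The tables have different units and were normalized separately, and the difference between the cell lines was not tested.

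Genes that tracked Tagln most closely across differentiation were ranked by Pearson's r of log2(TPM + 1) with Tagln, taken in the 6 unmodified libraries and in the 8 libraries of the shBcat epiLC table apart, and scored by the lower r. Among 249 genes that reached 10 TPM and ranged over at least 2 log2 units in both tables, the 8 closest were Thbs1 (0.990), Cnn2 (0.986), Igfbp5 (0.985), Myl9 (0.982), Nuak1 (0.979), Meis1 (0.978), Hmga2 (0.978) and Trp53i11 (0.9745). Libraries of a group share their condition, so these correlations describe group levels and carry no test. The insulin-like growth factor binding protein gene Igfbp5 was at 2.37 TPM at 24 h and 56.7 TPM at 48 h in unmodified cells, and at 2.11 TPM at 48 h and 29.6 TPM at 96 h with shBcat. The chromatin protein gene Hmga2 was at 5.84 and 90.8 TPM, and at 12.7 and 61.9 TPM, in the same groups.

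Of the members, Cnn2 and Myl9 were among those 8. Tpm1 had r of 0.994 and 0.989 in the 2 tables but ranged over less than 2 log2 units in the second. Acta2 had r of 0.998 and 0.945, Cnn1 0.923 and 0.931, Cald1 0.899 and 0.959, and Tpm2 0.861 and 0.988. Actg2, near 0 in both tables, had r of 0.963 and −0.16.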

How the data were processed

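RNA was extracted with TRIzol and libraries were made with a TruSeq kit, per the labels' protocols. FPKM values were deposited by the authors, per the file headers, and the submitters' processing notes name TopHat2 2.0.13 and Cufflinks 2.2.1. TPM values were deposited by the authors in 3 tables, and the submitters' processing notes name STAR, RSEM, Bowtie2, bcl2fastq 2.18 and build mm10. Versions of STAR, RSEM and Bowtie2, and strand settings, are not given in the sources used here. FPKM and TPM are shares of a library, so a few abundant genes can shift all others. 1 column of per-sample values, named for a library that has an FPKM column and holding values below 0, was not used.

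Each table was fitted apart as log2(value + 1) over all genes that reached 1 FPKM or TPM in 2 or more of its libraries, with limma 3.58.1 in R 4.3.3 (trend and robust moderation, 2-sided, Benjamini-Hochberg adjustment over all genes tested, threshold 0.05). A log2 difference on this scale understates the change of low genes. All groups of a table entered 1 fit. Scripts were tested on simulated data. The members, gene lists and comparisons were chosen with earlier results of these data known. Genes named beside the members are the most abundant of each list, those called with the largest changes, and the 8 closest to Tagln; Tpm4, Flna, Ctgf, Tagln2, Zyx and others with small changes were named after their values were seen. Alternatives were another pseudocount, filters, scaling, spread model, a replicate block, library sets and leaving out each library.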

Additional observations from a re-analysis of the deposited data

Results flagged for a closer look

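For 7 members, every shBcat library lay above every shGFP library in V6.5 cells in 2i and below every shGFP library in QKO cells. The difference between the cell lines itself was not tested. The shBcat minus shGFP differences on the log2 scale, V6.5 first and QKO second, were 1.82 and −2.49 for Tagln, 0.528 and −1.37 for Cnn1, and 1.55 and −1.01 for Cnn2. They were 1.26 and −1.64 for Myl9, 1.06 and −0.723 for Tpm1, 0.771 and −1.01 for Tpm2, and 0.36 and −0.258 for Cald1. Cnn1 lay under the level needed for a test in V6.5 cells.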

How the results depend on the processing

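Each count below is of members past the adjusted threshold. For shBcat in 2i, 5 passed, 3 where genes had to reach 5 FPKM, 0 with libraries averaged in pairs and 2 to 5 with each library left out. For shE2F6, 0 passed, 3 with the replicate block and 0 to 0 with each library left out. For shHP1r, 3 passed, 1 with a minimum of 5, 0 with the compared groups alone, 0 with the replicate block, 1 with median-of-ratios scaling, 0 averaged in pairs, 5 with shGFP replicates 3 and 4 alone as control and 0 to 4 with each library left out. For QKO cells, 0 passed, 1 with a minimum of 5 and 0 to 5 with each library left out. For shBcat epiLC, 3 passed from 24 to 48 h, 1 with no filter and 5 with the compared groups alone. From 48 to 96 h 8 passed, and every call held in each alternative fit in which the gene was tested. Acta2 did not reach 5 TPM and was not tested with a minimum of 5. Against control at 96 h 0 passed, and 1 with a minimum of 5.

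Libraries with the same replicate number in 2 compared groups had correlations of −0.142 to 0.283, taken on deviations from the group mean. In a group with n = 2 these deviations mirror each other, so the check cannot decide whether samples were paired. The replicate block left 2 calls from 24 to 48 h with shBcat, with Tagln at an adjusted p of 0.0709 by limma. Over all genes, calls in the control course kept within 1.5 times of 12578, 12279 and 12567, with 11363 to 11446, 10599 to 11091 and 11103 to 11528 when each library was left out. The share of all genes called, set beside the members' counts, moved as well. With each library left out, all-gene calls were 190 to 1223 for shBcat in 2i (1255 with all libraries), 14 to 4166 for shE2F6 (153), 290 to 1366 for shHP1r (1093), 8 to 964 for QKO cells (334), and for shBcat epiLC 2870 to 3038 from 24 to 48 h (5115), 2611 to 4664 from 48 to 96 h (5360) and 279 to 453 against control at 96 h (738, and 268 with the compared groups alone). Averaged in pairs, calls by limma were 0 for each hairpin in 2i (631, 190 and 607 genes at unadjusted p under 0.05), so that fit says nothing about the members. The highest counts were 7703 for shBcat and 7955 for shHP1r (shGFP replicates 3 and 4 alone as control) and 7685 for shE2F6 (replicate block).

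Directions turned only for members that passed in neither fit. For shBcat in 2i, Acta2 was at −0.61 against shGFP replicates 3 and 4 and at −0.093 to 0.42 with each library left out (lowest without shBcat replicate 2). For shE2F6, Tagln was at 0.062 with the replicate block, 0.035 scaled and −0.21 to 0.10 with each library left out (highest without shE2F6 replicate 2), Cnn2 at 0.060 scaled, and Acta2 at −0.045 and Myl9 at −0.10 both with the library set term and against shGFP replicates 3 and 4. For shHP1r, Tpm2 was at −0.18 with the replicate block, −0.050 scaled, −0.047 with the set term and −0.011 to 0.083 with each library left out (lowest without shGFP replicate 4), and Acta2 at 0.077 with the set term. For shBcat epiLC from 24 to 48 h, Cnn1 was at −0.35 to 0.10, above 0 without replicate 2 at 48 h and without replicate 2 at 24 h. At 96 h against control, leaving out each library gave −0.16 to 0.31 for Tagln, −0.057 to 0.090 for Tpm1 and −0.34 to 0.20 for Myl9, each with its extremes without shBcat replicates 1 and 2, and −0.020 to 0.15 for Cnn2 (lowest without control replicate 1). The cause was not tested. Scaling moved the median of all genes by 0.22 for shE2F6, −0.10 for shHP1r and −0.16 for 48 against 24 h in unmodified cells. Depth is unknown, so no limit can be set for values near 0.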
